A study of Mus musculus with 9 samples.

Results

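A group of 7 genes of tissue macrophages and monocytes, 6 for surface receptors and 1 for an oxidase subunit, was followed through dystrophic mouse muscle. These are Mrc1, Cd163, Csf1r, Cx3cr1, Itgam, Cybb and Cd84, 7 of the 15593 gene symbols in the deposited table. They were taken by name, with earlier results of these data known. They hold 18 of the table's 46442 records, and every one of the 18 was above 0 in all 9 libraries. The RNA came from gastrocnemius, the large calf muscle, in 3 groups of 3 libraries. Wildtype mice received vehicle, mdx mice received vehicle, and other mdx mice were given subcutaneous GTx-026 (10 mg/kg). In mdx mice the dystrophin gene Dmd is mutated in the germline, and these mice model Duchenne muscular dystrophy. The strain is labelled C57BL/6 for wildtype and mdx libraries alike. GTx-026 is a selective androgen receptor modulator, a drug class that acts on the androgen receptor of muscle. The sources used here give neither age nor length of treatment, and no library is tied to an animal. The p-values therefore describe spread among these 9 libraries.

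Macrophages of resting muscle live mostly in the connective tissue around fibres and carry scavenger receptors such as Mrc1 and Cd163. When fibres break down, as they do repeatedly without dystrophin, blood monocytes enter, mature into macrophages and clear debris. Csf1r and its ligands keep macrophages and monocytes alive, while the integrin subunit Itgam and the oxidase subunit Cybb serve adhesion, phagocytosis and the oxidative burst of both macrophages and neutrophils.

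The promoters of 4 members are shown as examples of contrasting levels: Mrc1 and Cd163 lay within the wildtype range in the library in which Itgam and Cybb were highest. Each line holds 250 bases before and 50 bases after a transcript start in the RefSeq table for GRCm38.p6, on the gene's own strand. The windows are chr2:14229164-14229463 on the plus strand for Mrc1, chr6:124304401-124304700 on the plus strand for Cd163, chr7:128062390-128062689 on the plus strand for Itgam and chrX:9469275-9469574 on the minus strand for Cybb, whose listed start lies inside the gene's span. Capitals mark GAGGAA on either strand, the core letters that the myeloid factor Spi1 (PU.1) can bind.
Mrc1: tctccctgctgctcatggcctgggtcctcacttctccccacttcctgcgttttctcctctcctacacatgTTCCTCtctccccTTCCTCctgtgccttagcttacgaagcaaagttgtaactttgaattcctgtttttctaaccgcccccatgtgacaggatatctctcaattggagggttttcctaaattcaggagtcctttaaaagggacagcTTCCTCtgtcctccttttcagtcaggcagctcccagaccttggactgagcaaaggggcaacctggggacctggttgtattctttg
Cd163: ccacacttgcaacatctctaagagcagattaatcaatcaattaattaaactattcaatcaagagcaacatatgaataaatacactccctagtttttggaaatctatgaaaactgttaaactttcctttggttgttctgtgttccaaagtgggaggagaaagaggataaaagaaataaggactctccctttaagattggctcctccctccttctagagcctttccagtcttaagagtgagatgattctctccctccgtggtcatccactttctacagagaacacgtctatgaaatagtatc
Itgam: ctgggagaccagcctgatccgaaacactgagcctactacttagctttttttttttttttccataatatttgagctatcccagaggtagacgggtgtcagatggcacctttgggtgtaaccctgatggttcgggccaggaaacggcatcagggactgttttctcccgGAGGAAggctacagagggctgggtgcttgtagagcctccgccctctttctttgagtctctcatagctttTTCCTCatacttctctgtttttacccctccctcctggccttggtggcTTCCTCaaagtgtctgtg
Cybb: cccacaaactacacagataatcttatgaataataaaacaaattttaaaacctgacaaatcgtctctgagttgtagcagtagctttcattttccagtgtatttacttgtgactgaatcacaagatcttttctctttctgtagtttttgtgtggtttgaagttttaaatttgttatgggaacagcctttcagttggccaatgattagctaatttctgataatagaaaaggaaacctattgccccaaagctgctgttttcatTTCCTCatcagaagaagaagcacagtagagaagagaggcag
The letters GAGGAA occur at 3 places in the Mrc1 window, 3 in the Itgam window and 1 in the Cybb window, and at 1 place in the Cd84 window, which is not shown. The Cd163 and Cx3cr1 windows hold none. Of all 32851 RefSeq promoter windows of this length, 28.3% hold it on one strand or the other. The AP-1 letters TGANTCA occur in the Cybb and Cd84 windows and in 7.81% of all windows, and the C/EBP letters TTGCNNAA occur in none of the 6 windows searched and in 10.8% of all. No match overlapped another, and a match of letters does not show that a factor binds. Spi1 itself had no record under that symbol, so its level was not measured.

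Depth and quality bear on every value below. A library held an estimated 25.1 M to 38.0 M listed reads, and the members' values rest on 58 to 1560 estimated reads each. Levels are in CPM, a gene's reads relative to the rescaled total of its library. The mutated gene went with the labels, since Dmd lay at 41.4 to 60 CPM in wildtype libraries and at 11.4 to 21.7 CPM in the 6 mdx libraries. Skeletal muscle fibre markers (6 of 6 measured, among them Acta1 and Ckm) summed to between 109000 and 192000 CPM, so the libraries carried the labelled tissue. Their sum was 153000 to 192000 CPM in wildtype, 109000 to 146000 CPM in mdx vehicle and 112000 to 192000 CPM in treated libraries. Of 10 general macrophage markers 7 were measured, while Adgre1, Aif1 and Ptprc had no record under those symbols. Among those measured, Lyz2 was at 17.1 to 235 CPM and Ctss at 1.2 to 111 CPM over all libraries.

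Mdx vehicle library 1 stood apart from the other 8. Its median correlation with its own group was 0.945, against 0.959 to 0.983 for the others, and it needed the largest rescaling, by a factor of 1.30. Cd52, a surface protein abundant on lymphocytes, was at 110 CPM there, at 37.8 CPM in wildtype vehicle library 1, at 26.2 CPM in mdx GTx-026 library 2, and between 0.982 and 5.84 CPM in the other 6. The T cell gene Cd8a reached 37.4 CPM in mdx vehicle library 1, and the only other libraries above 5 CPM were wildtype vehicle library 1 at 13.2 CPM and mdx GTx-026 library 2 at 9.69 CPM. These are the only measured genes of the 8 B cell and 9 T cell markers, so the lymphoid content was read from 1 gene each, and none of 6 natural killer cell markers was measured. Of 9 neutrophil markers only Cxcr2 was measured, at 7.82 to 12.2 CPM in wildtype, 8.14 to 15.2 CPM in mdx vehicle and 8.26 to 13.7 CPM in treated libraries. The part of these cells in the members' values was not tested, and each comparison is therefore also given without mdx vehicle library 1.

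**Figure D1:**
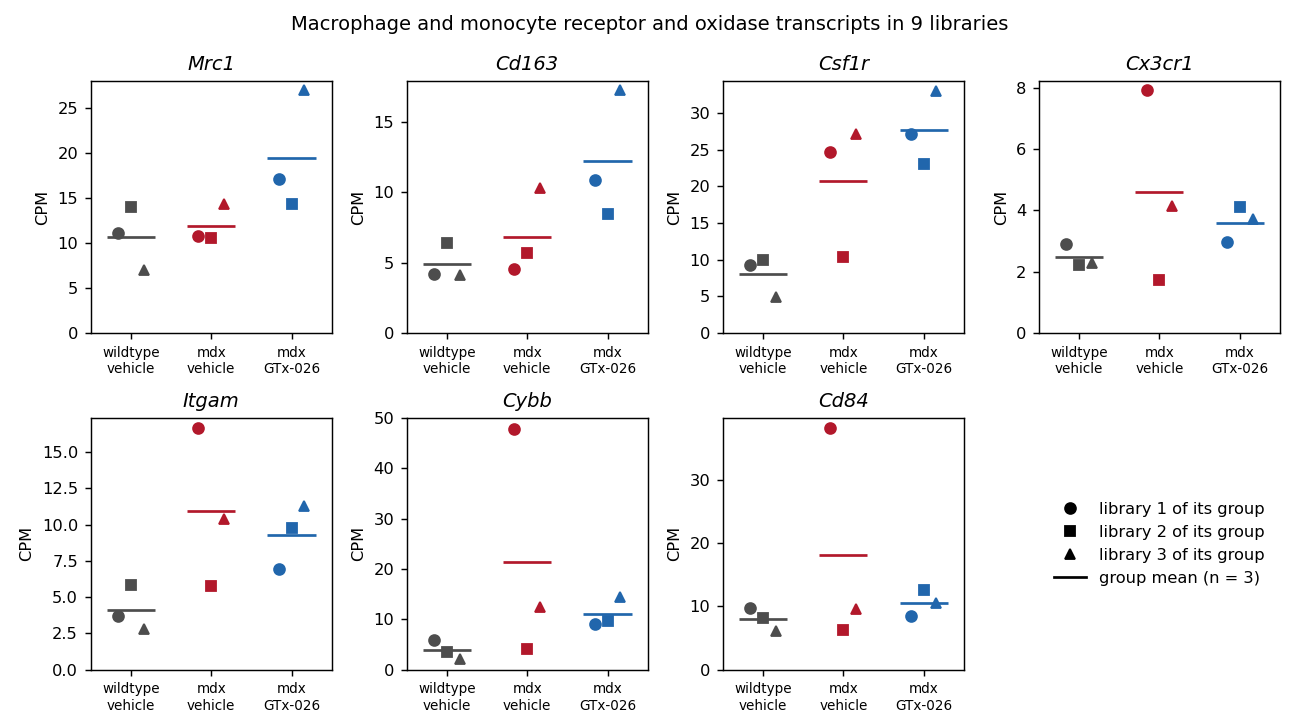
CPM of each of the 7 genes (vertical axis, linear, starting at 0) in the 9 libraries of the 3 groups. Points are libraries, with a symbol for the library's number, and bars are means of 3. Mdx vehicle library 1 is the highest point for Cx3cr1, Itgam, Cybb and Cd84, at 47.8 CPM for Cybb, but lies at 10.8 CPM for Mrc1.

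The scavenger receptors Mrc1 and Cd163 were highest in the treated mdx muscle. Mrc1, the mannose receptor that takes up glycoproteins and collagen fragments, was at 11.1, 14.0 and 6.98 CPM in wildtype libraries 1 to 3, at 10.8, 10.5 and 14.3 CPM in mdx vehicle libraries, and at 17.1, 14.3 and 26.9 CPM in mdx GTx-026 libraries. The mdx vehicle libraries overlapped wildtype, and all 3 treated libraries lay above wildtype, although treated library 2 was level with mdx vehicle library 3. The means were 10.7 ± 3.53, 11.9 ± 2.14 and 19.4 ± 6.64 CPM (SD, n = 3 each). Cd163, which removes haemoglobin bound to haptoglobin, was at 4.23, 6.42 and 4.15 CPM in wildtype, at 4.53, 5.72 and 10.3 CPM under vehicle in mdx, and at 10.9, 8.45 and 17.3 CPM under GTx-026. Again the treated libraries all exceeded wildtype, and mdx vehicle library 3 lay among the treated ones. Mdx vehicle library 1, so high for other members, lay inside the wildtype range for both scavenger receptors.

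Csf1r, the receptor tyrosine kinase for the survival factors Csf1 and Il34, lay above every wildtype library in both mdx groups, though narrowly in mdx vehicle. It was at 9.32, 9.98 and 4.95 CPM in wildtype libraries, at 24.6, 10.3 and 27.1 CPM in mdx vehicle libraries and at 27.2, 23.1 and 32.9 CPM in mdx GTx-026 libraries. Mdx vehicle library 2 cleared the highest wildtype library by little, whereas every treated library stood more than a doubling above it. The narrow margin held for the sum of the Csf1r records but not for each record. In the deposited signal record 1 was at 63.1 in mdx vehicle library 2 and at 74.9 in wildtype library 1. Group means were 8.08 ± 2.73, 20.7 ± 9.06 and 27.7 ± 4.96 CPM (SD, n = 3 each). Cx3cr1, the fractalkine receptor of patrolling monocytes and many resident macrophages, was the least abundant member. It was at 2.91, 2.22 and 2.29 CPM in wildtype, at 7.90, 1.74 and 4.15 CPM in mdx vehicle and at 2.95, 4.12 and 3.71 CPM in treated libraries. The mdx vehicle group held both the highest and the lowest Cx3cr1 value of all libraries, and the treated libraries lay just above wildtype.

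Itgam and Cybb, the adhesion and oxidase members, were led by mdx vehicle library 1. Itgam, the CD11b chain of complement receptor 3, was at 3.71, 5.84 and 2.80 CPM in wildtype, at 16.7, 5.75 and 10.4 CPM in mdx vehicle and at 6.91, 9.78 and 11.3 CPM in treated libraries. Its treated libraries all exceeded wildtype, and its mdx vehicle libraries spanned from inside the wildtype range to above every treated library. Cybb, the catalytic gp91phox subunit of the phagocyte NADPH oxidase, was at 5.96, 3.62 and 2.11 CPM in wildtype, at 47.8, 4.16 and 12.6 CPM in mdx vehicle and at 9.04, 9.63 and 14.5 CPM in treated libraries. Cybb varied most among the members, by 22.7-fold between the lowest and highest library and by 11.5-fold within mdx vehicle. Cd84, an adhesion receptor of the SLAM family found on macrophages, platelets and lymphocytes, was at 9.80, 8.20 and 6.04 CPM in wildtype, at 38.1, 6.31 and 9.60 CPM in mdx vehicle and at 8.54, 12.5 and 10.5 CPM in treated libraries. Apart from mdx vehicle library 1, Cd84 values of the 3 groups ran into each other.

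The 7 genes lie on different chromosomes of the mouse build GRCm38. In RefSeq on GRCm38.p6, Mrc1 spans chr2:14229414-14332023, Cd163 spans chr6:124304636-124330529, Csf1r spans chr18:61105572-61131139 and Cx3cr1 spans chr9:120048683-120068296. Itgam spans chr7:128062640-128118491, Cybb spans chrX:9435252-9487766 and Cd84 spans chr1:171839697-171890718. Some of these sums carry limits of annotation. In GENCODE M21 the model Gm49368 overlaps Itgam on the same strand and shares 66.3% of its 50-base words, and reads from that shared part cannot be told apart. The GENCODE span of Cx3cr1 overlaps genes on its own strand (Gorasp1, Csrnp1 and Xirp1) as well as on the opposite strand. Csf1r overlaps Hmgxb3 on the opposite strand, and whether the authors counted by strand was not given in the sources used here.

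Per kilobase of transcript, the order of levels differed between groups. In wildtype muscle Cd84 led at 2.44 ± 0.574 CPM per kilobase (SD, n = 3), followed by Mrc1 at 1.99 ± 0.657, Csf1r at 1.72 ± 0.582, Itgam at 1.11 ± 0.422, Cd163 at 1.11 ± 0.291, Cybb at 0.820 ± 0.408 and Cx3cr1 at 0.551 ± 0.0843. Of these neighbours, only Csf1r and Itgam differed by more than the larger of their SDs. In treated mdx muscle Csf1r led at 5.90 ± 1.06 CPM per kilobase, then Mrc1 at 3.62 ± 1.24, Cd84 at 3.20 ± 0.608, Cd163 at 2.75 ± 1.02, Itgam at 2.52 ± 0.596, Cybb at 2.32 ± 0.626 and Cx3cr1 at 0.799 ± 0.131. There the steps from Csf1r to Mrc1 and from Cybb to Cx3cr1 exceeded the spread. In mdx vehicle muscle no neighbours differed beyond their spread, and the spread was widest for Cd84 at 5.48 ± 5.32 and Cybb at 4.53 ± 4.87 CPM per kilobase.

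The make-up of the 7 transcripts within a library set mdx vehicle library 1 apart from all others. Cybb made up 31.8% of the members' summed CPM there and 7.20% to 14.2% in the other 8 libraries. Mrc1 made up 7.17% there against 16.2% to 27.9%, and Cd163 made up 3.01% against 8.98% to 14.7%. The ratio of Cybb to Mrc1 was 4.43 in that library and 0.259 to 0.876 in the rest, while the ratio of Cd163 to Mrc1 was 0.420 and lay inside the 0.380 to 0.717 of the rest. The summed CPM of the 7 was 150 there, 44.5 and 88.5 in the other mdx vehicle libraries, 29.3 to 50.3 in wildtype and 81.9 to 117 in treated libraries. So the mdx vehicle group held a library at the wildtype level, a library at the treated level and a library above every other. In bulk RNA, more cells of a type and more RNA per cell cannot be told apart.

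**Figure D2:**
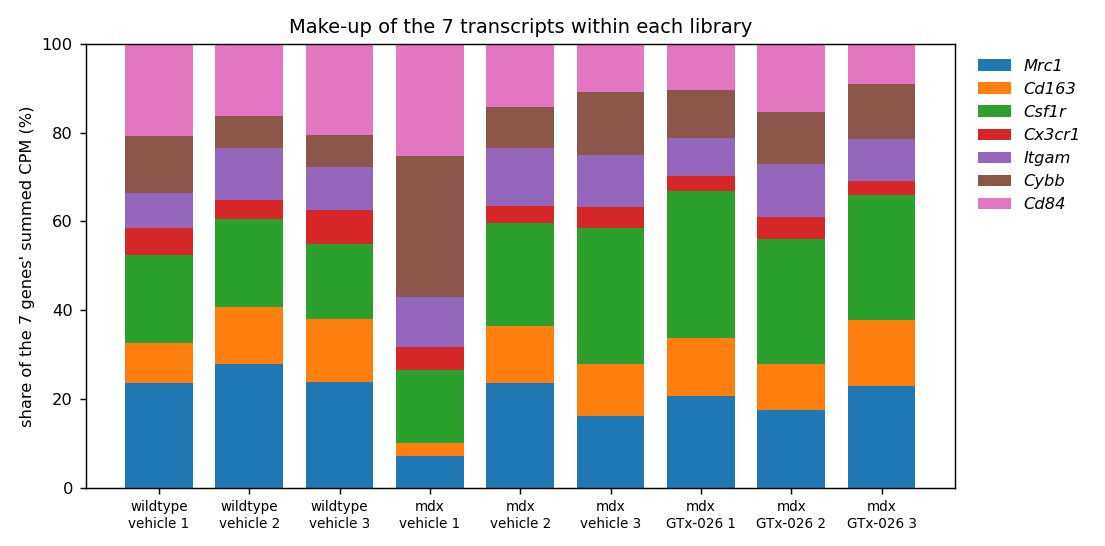
Share of each gene in the summed CPM of the 7 (vertical axis, percent, 0 to 100) for each of the 9 libraries. In mdx vehicle library 1 the Cybb segment is 31.8% and the Mrc1 segment 7.17%, and in the other 8 libraries Mrc1 holds 16.2% or more.

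Mdx vehicle against wildtype vehicle asks how the 7 genes stand in untreated dystrophic muscle. All 7 had a positive log2 fold change, as did 51.1% of the 15372 genes tested, with a median of 0.71 on the log2(CPM + 1) scale against 0.00875 for all genes. None of the 7 passed limma's Benjamini-Hochberg adjusted p of 0.05, a threshold that 52 genes or 0.338% passed. At an unadjusted p below 0.05 there were 3 members, Csf1r, Itgam and Cybb, against 12.7% of all genes. Csf1r was the only member whose mdx vehicle libraries all exceeded wildtype, as did those of 7.97% of genes, with a log2 fold change of 1.20 ± 0.36 (SE) and an adjusted p of 0.240. Cybb had the largest difference but the widest error, 1.70 ± 0.67 (SE, adjusted p = 0.354), and Itgam stood at 1.16 ± 0.35 (SE, adjusted p = 0.251). Mrc1 differed least, by 0.17 with a 95% interval from -0.46 to 0.80, followed by Cd163 at 0.36 with an interval from -0.35 to 1.07. Cx3cr1 at 0.53 and Cd84 at 0.71 had adjusted p-values of 0.549 and 0.588.

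Without mdx vehicle library 1, 6 of the 7 log2 fold changes against wildtype were positive and their median was 0.58. Cybb came down to 0.85, Itgam to 0.82, Cx3cr1 to 0.12 and Cd84 to -0.01, whereas Mrc1 at 0.23 and Cd163 at 0.58 were somewhat higher than before. Csf1r was at 1.02 with an adjusted p of 0.387. Leaving out mdx vehicle library 2 instead gave Csf1r an adjusted p of 0.0492, the single setting of 18 in which it passed in this comparison. Cd52 at 110 CPM and Cd8a at 37.4 CPM in library 1 went with these values. The fibre markers also moved with this comparison, as their summed level in mdx vehicle lay below all wildtype libraries. The part of either in the result was not tested.

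Mdx GTx-026 against mdx vehicle asks how dystrophic muscle differed with the drug. Scavenger receptors and Csf1r had positive log2 fold changes, and the other 4 members had negative ones, while 51.1% of all genes were positive and none of the 7 passed the threshold. Cd163 was at 0.76 ± 0.32 (SE), Mrc1 at 0.63 ± 0.28 and Csf1r at 0.50 ± 0.36, while Cx3cr1 and Itgam were at -0.13, Cd84 at -0.34 and Cybb at -0.35. Limma's Benjamini-Hochberg adjusted p rounded to 1.00 for all 7 members, and 0.013% of all genes passed, 2 in number. Unadjusted p-values below 0.05 in limma were found for 2 members, Cd163 and Mrc1, and for 3.17% of genes. The 95% interval of Cybb ran from -1.85 to 1.15 and that of Cd84 from -1.49 to 0.81, so differences of more than a doubling in either direction or downward, respectively, lay within the error. In all 7 the treated libraries overlapped the mdx vehicle libraries, and 6.8% of all genes had none. The median over the 7 was -0.13 against 0.00488 for all genes.

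The 4 negative values turned positive without mdx vehicle library 1. All 7 log2 fold changes of treated against untreated mdx were then above 0, from 0.21 for Itgam and 0.28 for Cx3cr1 to 0.38 for Cd84, 0.50 for Cybb, 0.54 for Cd163, 0.57 for Mrc1 and 0.67 for Csf1r. Their median was 0.50 and their adjusted p still rounded to 1.00. The negative direction for Cx3cr1, Itgam, Cybb and Cd84 was therefore not kept without that library. Itgam also turned positive without treated library 1 (0.05) and with its highest record in place of the sum (0.0074), and Cx3cr1 and Cd84 did so with library weights (0.0024 and 0.064). The direction of Mrc1, Cd163 and Csf1r was positive in all 18 alternative settings. Several of these cannot change the fold change in this comparison, such as leaving out a wildtype library. The same holds for the compared groups only, a constant prior variance and the filter at a mean of 1 CPM. Csf1r came down to 0.083 without mdx vehicle library 2.

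Mdx GTx-026 against wildtype vehicle shares its libraries with both other comparisons and shows how far treated dystrophic muscle stood from healthy muscle. All 7 genes had a positive log2 fold change, as did 50.4% of genes, and for 6 of the 7 every treated library exceeded every wildtype library, as in 11.5% of genes. The exception was Cd84. For Cx3cr1 the margin was small, with 2.95 CPM in treated library 1 against 2.91 CPM in wildtype library 1. In the deposited signal, before the rescaling used here, that order was reversed, at 67.1 against 75.8. Mrc1 also cleared wildtype by little, with 14.3 CPM in treated library 2 against 14.0 CPM in wildtype library 2. The median was 1.03 against 0.00177 for all genes. None passed the adjusted threshold, which 227 genes or 1.48% passed, and 4 were below an unadjusted p of 0.05, namely Mrc1, Cd163, Csf1r and Itgam, against 12.5% of genes. Csf1r came nearest, with 1.70 ± 0.36 (SE, adjusted p = 0.0542), followed by Cd163 with 1.12 ± 0.32 (SE, adjusted p = 0.148). Itgam was at 1.03 ± 0.35, Mrc1 at 0.80 ± 0.28 and Cybb at 1.35 ± 0.67 (SE), with adjusted p-values of 0.239, 0.255 and 0.467. Cx3cr1 at 0.40 had a 95% interval from -0.39 to 1.19, and Cd84 at 0.36 one from -0.79 to 1.52.

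Csf1r lay close enough to the threshold that the choice of fit decided the call. Its adjusted p was below 0.05 in 5 of 18 alternative settings, among them 0.0174 with the compared groups alone and 0.0426 without mdx vehicle library 1, and it reached 0.204 at the other end. Its log2 fold change stayed between 1.33 and 1.86 throughout. Connective tissue markers moved with this comparison: the 6 fibro-adipogenic progenitor genes, Pdgfra and Dcn among them, summed to 273 to 488 CPM in wildtype and 546 to 886 CPM in treated libraries. Their part in the members' values was not tested. Of the 18 member records, 7 had an unadjusted p below 0.05 between wildtype and treated muscle in the authors' deposited table, with a lowest p of 0.00772, as did 9.32% of all records in that table with a p. In the same deposited table it was 1 of 18 between wildtype and mdx vehicle, against 6.01% of records, and 0 of 18 between mdx vehicle and treated, against 1.94%. Records of a gene can share reads and are not independent.

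**Figure D3:**
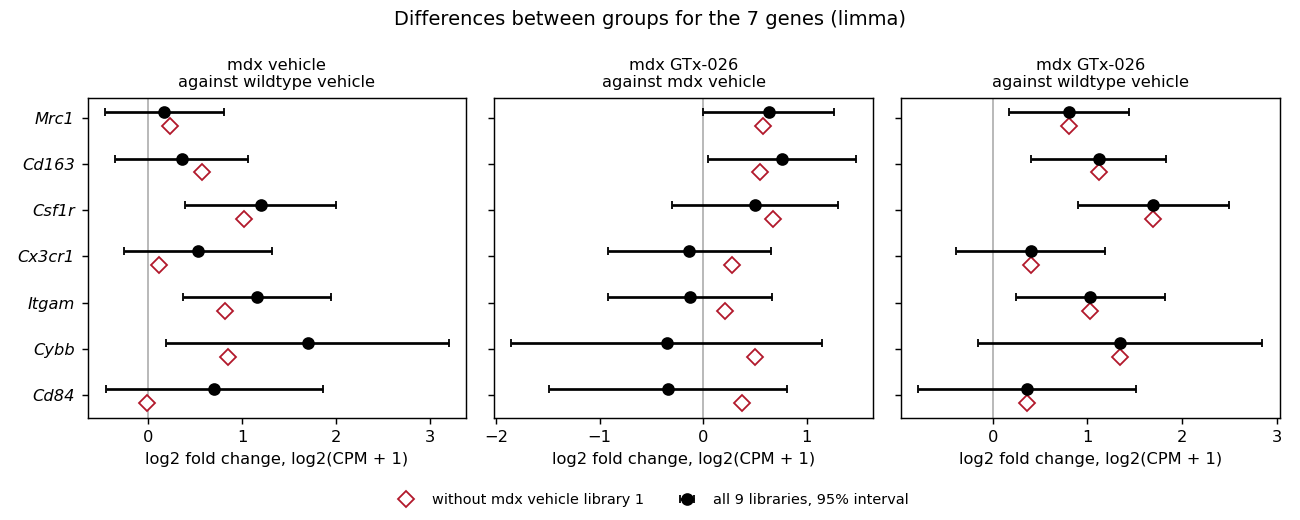
Log2 fold change of each gene on the log2(CPM + 1) scale (horizontal axis) in the 3 comparisons. Filled circles with bars are limma estimates over all 9 libraries with 95% intervals, and open diamonds are estimates without mdx vehicle library 1. In the middle panel Cybb moves from -0.35 to 0.50 when that library is left out, and in the right panel Csf1r lies at 1.70.

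Ligands of the receptors gave no counterpart past the threshold. Of 8 ligand genes 7 were measured and 0 passed in any comparison, with median log2 fold changes of 0.52 in mdx vehicle and 0.40 in treated muscle against wildtype. Csf1, the main Csf1r ligand, was at 9.59, 18 and 8.87 CPM in wildtype, at 16.7, 9.73 and 10.8 CPM in mdx vehicle and at 19.2, 13.5 and 16.5 CPM in treated libraries, which all overlap. Il34, the second ligand, was at 0.436 to 0.693 CPM in wildtype and at 1.12 to 1.30 CPM in mdx vehicle libraries, without overlap but with an adjusted p of 0.149, and at 0.760 to 1.15 CPM in treated libraries. Its values in wildtype libraries 2 and 3 lay at the smallest signal above 0 of those libraries, so this lack of overlap rests on few reads. Cx3cl1, the ligand of Cx3cr1, was at 2.36 to 4.40 CPM in wildtype, 5.36 to 6.03 CPM in mdx vehicle and 3.17 to 5.32 CPM in treated libraries (adjusted p = 0.289 for mdx vehicle against wildtype). Hp, the haptoglobin that delivers haemoglobin to Cd163, ranged from 0.582 to 9.59 CPM in wildtype and from 29.3 to 78.8 CPM in treated libraries, a log2 fold change of 3.86 with an adjusted p of 0.126. In mdx vehicle libraries Hp was at 3.86, 1.12 and 41.8 CPM, so that library 3 lay among the treated values.

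Some partners of Cybb and Itgam, though not all, were also highest in mdx vehicle library 1. Cyba, which forms the membrane heterodimer with Cybb, was at 41.8 CPM in mdx vehicle library 1 and at 3.16 to 16.7 CPM in the other 8. Ncf1, a cytosolic organiser of the oxidase, was at 40.6 CPM there and at 1.86 to 13.5 CPM elsewhere. Rac2, the small GTPase of the complex in blood cells, was high in the 3 libraries with high Cd52. It was at 132 CPM in mdx vehicle library 1, 36.8 CPM in wildtype vehicle library 1, 33.5 CPM in mdx GTx-026 library 2 and 2.04 to 6.38 CPM in the rest. Cyba and Ncf1 were also highest of their group in each of these 3 libraries. In wildtype vehicle library 1 they were at 11.4 and 10.3 CPM. In mdx GTx-026 library 2 they were at 16.7 and 13.5 CPM, although Cyba was at 16.4 CPM in mdx GTx-026 library 3. Among the 7 members, Cd84 and Cx3cr1 were likewise highest of their group in each of the 3 libraries with high Cd52. No other member was highest in all 3. Cd84 was at 9.80 CPM in wildtype vehicle library 1, 38.1 CPM in mdx vehicle library 1 and 12.5 CPM in mdx GTx-026 library 2. Cx3cr1 was at 2.91, 7.90 and 4.12 CPM in the same 3 libraries. The part of lymphoid cells in these values was not tested. The broadly expressed Rac1 was at 178 CPM in mdx vehicle library 1, below the 192 to 198 CPM of wildtype, and the integrin activator Tln1 was at 136 CPM there, within the 121 to 168 CPM of the other libraries. Of the 5 oxidase partners measured of 6, 0 passed in any comparison. Itgb2, the integrin chain that pairs with Itgam and also with Itgal of lymphocytes, was at 93.8 CPM in mdx vehicle library 1 and at 1.67 to 17.5 CPM elsewhere, and 0 of 4 integrin partners passed, nor did any of the 4 SLAM family relatives of Cd84 that were measured out of 10 genes. Tyrobp, an adaptor of myeloid receptors, was at 1.53 to 6.62 CPM in wildtype, at 34.5, 4.81 and 14.6 CPM in mdx vehicle and 15.1 to 18.8 CPM in treated libraries, and had a log2 fold change of 1.87 between treated and wildtype (adjusted p = 0.204).

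Over all 53 genes on the lists of ligands, oxidase and integrin partners, SLAM family members, myeloid transcription factors, signalling adaptors and iron handling, 39 were measured. Of these 1 passed upward in mdx vehicle against wildtype, 0 in treated against untreated mdx and 1 in treated against wildtype, and 0 passed downward. The gene was Runx1 both times, a transcription factor of blood cell development that is also expressed in damaged muscle fibres. Runx1 was at 2.67, 1.84 and 1.75 CPM in wildtype, at 4.96, 5.93 and 4.87 CPM in mdx vehicle and at 6.09, 6.74 and 5.96 CPM in treated libraries, with adjusted p-values of 0.0369 and 0.0082 against wildtype. Unlike Cybb, it was not highest in mdx vehicle library 1. In the iron group of 7, which includes Cd163, 0 passed, and Hmox1, which degrades the haem that Cd163 brings in, was at 3.96 to 7.41 CPM in wildtype, at 5.87 to 8.08 CPM in mdx vehicle and at 10.2 to 14.4 CPM in treated libraries (adjusted p = 0.0725). Slc40a1, the iron exporter, was at 13.1 to 15.7 CPM in wildtype, at 10.8 to 14.4 CPM in mdx vehicle and at 14.4 to 17.7 CPM in treated libraries.

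Other macrophage genes showed both patterns seen among the members. Of the resident-type markers 7 of 11 were measured and 1 passed, Cbr2, between treated and wildtype muscle. Folr2, a folate receptor of resident macrophages, was at 0.546 to 1.33 CPM in wildtype, 0.914 to 1.78 CPM in mdx vehicle and 1.96 to 2.80 CPM in treated libraries (adjusted p = 0.0900 for treated against wildtype). Lyve1, a hyaluronan receptor of perivascular macrophages and lymphatic vessels, overlapped in all groups, with 0.658 to 5.19 CPM in wildtype, 1.10 to 2.01 CPM in mdx vehicle and 1.33 to 4.56 CPM in treated libraries. Ly6c2, a marker of inflammatory monocytes, was at 17.4 CPM in mdx vehicle library 1 and 2.24 to 5.92 CPM elsewhere. Of 10 monocyte markers 4 were measured, Ccr2 not among them, and the others were not highest in that library. There Vcan was at 1.44 CPM and Ace at 27.5 CPM, within wildtype ranges of 1.00 to 1.45 and 16.1 to 36.2 CPM. Fn1 was at 131 CPM there, below 179 CPM in mdx vehicle library 3 and 258 CPM in mdx GTx-026 library 3. Cd68, a lysosomal protein of macrophages, was at 61.2 CPM in mdx vehicle library 1 and at 1.93 to 23.0 CPM elsewhere. Lgals3, the galectin of phagocytic macrophages and regenerating tissue, passed against wildtype in both mdx groups, with 3.24 to 7.52 CPM in wildtype, 27.5 to 189 CPM in mdx vehicle and 66.8 to 98.5 CPM in treated libraries (adjusted p = 0.0336 and 0.0161). Gpnmb, a glycoprotein of lipid-laden phagocytes, was at 1.47 to 2.40 CPM in wildtype and at 6.70 to 422 CPM in mdx vehicle libraries, yet its adjusted p was 0.201. Treated libraries held 25.6 to 83.8 CPM of Gpnmb (adjusted p = 0.177 against wildtype). C1qa, a subunit of complement C1q made largely by macrophages, was at 4.66 to 15.7 CPM in wildtype, at 29.6, 15.2 and 49.1 CPM in mdx vehicle and at 33.1 to 47.5 CPM in treated libraries. The highest C1qa value of all was thus in mdx vehicle library 3. C1qa had an adjusted p of 0.0801 between treated and wildtype, and its partner C1qc passed there with an adjusted p of 0.0463.

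**Figure D4:**
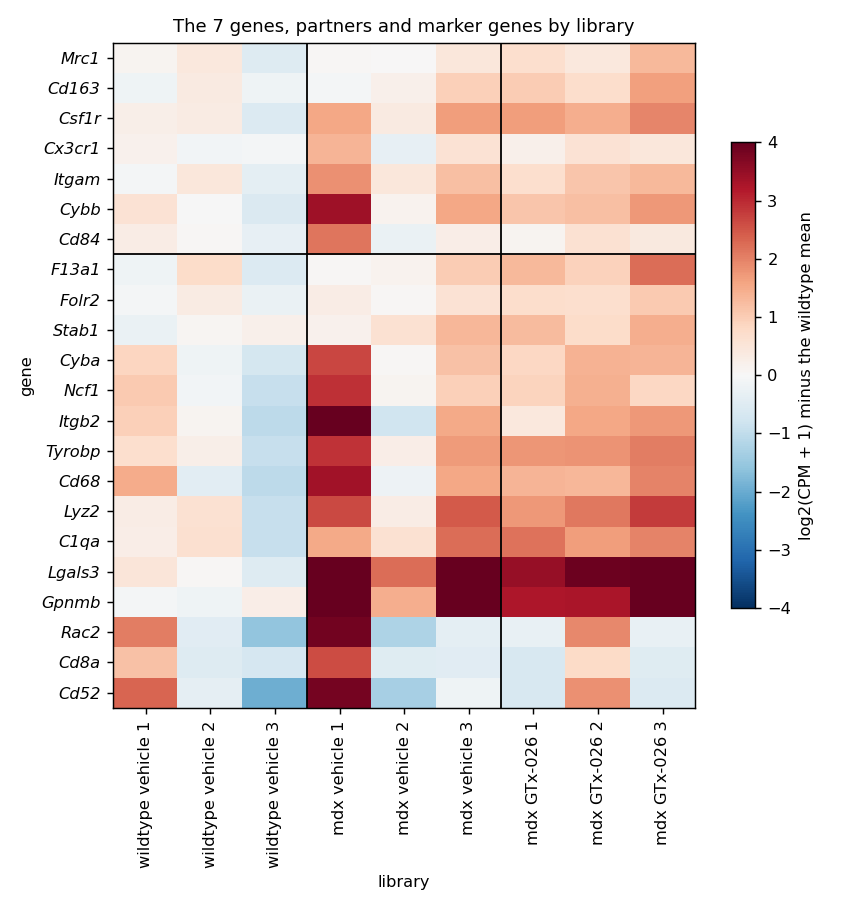
Log2(CPM + 1) minus the wildtype mean (colour, red higher and blue lower, values beyond 4 drawn at 4) for the 7 genes above the line and partner or marker genes below it, in the 9 libraries. Cybb, Cyba, Ncf1 and Itgb2 are darkest in mdx vehicle library 1, Mrc1, Cd163, F13a1 and Folr2 are darkest in mdx GTx-026 library 3, and Rac2, Cd8a and Cd52 are high in wildtype vehicle library 1, mdx vehicle library 1 and mdx GTx-026 library 2.

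Across the 9 libraries the members formed no single pattern. Pearson's r of log2(CPM + 1) between members, given as a description over libraries that share groups and depth, ran from -0.10 for Cd163 with Cd84 to 0.94 for Cx3cr1 with Cybb over the 21 pairs. Mrc1 with Cd163 reached 0.92, and so nearly did Itgam and Cybb at 0.91. Over the 8 libraries without mdx vehicle library 1 all 21 values were positive, from 0.54 for Cd163 with Cd84 to 0.96 for Csf1r with Cybb, and Mrc1 with Cd163 was still 0.92.

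The nearest genes were taken among those at a mean of 5 CPM or more, 10337 to 10343 genes depending on the member. Each r below is thus among the highest of many values over 9 libraries, and is given as a description. F13a1, the factor XIII chain of resident-type macrophages, was nearest to both Mrc1 (r = 0.98) and Cd163 (r = 0.98) over the 9 libraries, next came Cd163 and Net1 for Mrc1 (r = 0.92 and 0.91), and Wls and Bcam for Cd163 (r = 0.96 and 0.95). For Csf1r they were C1qc (r = 0.98), Grn (r = 0.98) and C1qa (r = 0.97). For Cx3cr1 they were Ctsh (r = 0.98), Tbc1d10a and Cap1 (both r = 0.98), and for Itgam they were B4galt6 (r = 0.99), Zfc3h1 (r = 0.98) and Pbdc1 (r = 0.97). Cybb was nearest to Tnfrsf1b (r = 0.99), Emb (r = 0.99) and Iqgap1 (r = 0.99), and Cd84 to Icam1 (r = 0.99), Samd9l (r = 0.99) and Ddx41 (r = 0.97). Without mdx vehicle library 1 these values moved little for the neighbours of Mrc1, Cd163 and Csf1r, whereas the r of Ddx41 with Cd84 was 0.85. The mean of the 7 standardised members ran closest to Lyz2 (r = 0.99), the lysozyme of macrophages and granulocytes, followed by Fcer1g, Tyrobp, Ctss, Lyz1, Sirpa, Alox5ap and Rnf149 (r = 0.96 to 0.98).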

How the data were processed

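RNA with poly(A) tails was enriched and sequenced on an Ion Torrent Proton, per the labels' protocols. The build GRCm38.p3 and the tools HTSeq 0.6.1p1, Bowtie2 2.2.4, DESeq2 1.6.3, TopHat2 2.0.13 and SAMtools 0.1.19 are named, without role or order, per the submitters' processing notes. The sources used here give no annotation, no use of strand and no rule for low values. The authors' deposited signal is a scaled read number per record and library. Up to 10000 these values were whole multiples of 1 step per library (tolerance 0.1 read), and value over step gave the estimated reads. No signal lay between 0 and 10, and records at 0 were at 0 in whole groups. A count model was not run, because reads recovered from a table without values near 1 read were not accepted as counts. The authors' ratio of group means and the authors' unadjusted p-value are further columns, per the file headers.

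Columns name a group and a number that pairs nothing. Records were summed per symbol over records above 0 in all 9 libraries (15372 of 15593 symbols), libraries were rescaled by an unweighted trimmed mean (30% on ratio, 5% on level, factors 0.874 to 1.30), and log2(CPM + 1) was fitted in R 4.3.3 by limma 3.58.1, using a trended prior variance and the spread pooled over the 3 groups, with Benjamini-Hochberg adjustment over all tested genes. The fit was tested on simulated data in which each gene's spread was capped at the median spread and no library stood apart. That setting is milder than these data and does not cover a library such as mdx vehicle library 1. Fold changes on this scale understate those of low genes. The members, the lists, the named genes (the 7 members, partner and marker genes named whatever their values, list genes past 0.05 in any comparison, the 3 genes nearest to each member and the 8 nearest to their mean) and the tests were chosen with earlier results of these data known. A partner gene that the rule names is not reported here. Rac1, Rac2, Tln1, Cd8a, Cxcr2, Itgal, Vcan and Fn1 were added after their values were seen. Alternatives covered scaling, pseudocount, low-value filter, record choice, groups in the fit, prior, library weights and each library left out.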

Additional observations from a re-analysis of the deposited data

How the results depend on the processing

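Of 378 refits of single members (18 alternatives, 9 of them leaving out 1 library), 10 changed direction, and none of these 10 was past the threshold. Some of these settings cannot move a fold change, such as a constant prior variance or leaving out a library of the group not compared. For treated against untreated mdx, library weights gave 0.064 for Cd84 and 0.0024 for Cx3cr1, and the highest record in place of the sum gave 0.0074 for Itgam. Leaving out 1 library gave ranges of -0.83 to 0.38 for Cd84, -0.57 to 0.28 for Cx3cr1, -1.12 to 0.50 for Cybb, -0.48 to 0.21 for Itgam (also 0.05 without treated library 1) and -0.48 to 0.50 for the median of the 7. For mdx vehicle against wildtype it gave -0.012 to 1.20 for Cd84 and -0.080 to 0.38 for Mrc1, the lowest without wildtype library 3. Members past the threshold numbered 1 (Csf1r) for treated against wildtype with no filter, with the compared groups only and with library weights, and 0 to 1 on leaving out 1 library, the latter also for mdx vehicle against wildtype. Genes passing over the whole table moved more. For treated against untreated mdx there were 2, against 4 with the deposited scaling, 1 with a pseudocount of 5, 96 with no filter, 1 with the compared groups only, 4 with library weights and 0 to 2 on leaving out 1 library. For treated against wildtype the 227 became 509 with no filter, 421 with the compared groups only, 861 with library weights and 45 (without wildtype library 3) to 368 (without mdx vehicle library 1). For mdx vehicle against wildtype the 52 became 332, 5 and 295 in the same 3 settings and 5 (without wildtype library 3) to 93 (without mdx vehicle library 2). The cause of these moves was not tested. Library weights gave mdx vehicle library 1 a weight of 0.308. No paired analysis was possible because the library numbers pair nothing. Members in wildtype rest on as few as 58 estimated reads.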

Other observations

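A few genes on the marker lists passed limma's adjusted threshold between treated mdx and wildtype muscle although none of the 7 genes did. Cbr2, a carbonyl reductase found in resident-type macrophages, was at 10.2, 16.0 and 11.5 CPM in wildtype, at 10.8, 17.0 and 19.2 CPM in mdx vehicle and at 68.2, 49.0 and 34.2 CPM in treated libraries (adjusted p = 0.0156 against wildtype and 0.361 against mdx vehicle). Its treated libraries lay above all 6 others, which was so for none of the 7 genes, and mdx vehicle library 1 was not raised. Treated libraries lay above all wildtype libraries in 11.5% of genes. They did not overlap mdx vehicle, in either direction, in 6.8%, and the share of genes with both was not counted. Stab2, a scavenger receptor of sinusoidal endothelium, was at 8.00, 8.88 and 10.1 CPM in wildtype, at 10.0, 8.79 and 6.32 CPM in mdx vehicle and 21.7, 17.9 and 16.7 CPM in treated libraries (adjusted p = 0.0389 and 0.336).

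Ace, the angiotensin-converting enzyme listed with monocyte markers and also made by endothelium, was at 16.1 to 36.2 CPM in wildtype, 27.5 to 61.9 CPM in mdx vehicle and 71.1 to 120 CPM in treated libraries (adjusted p = 0.0359 against wildtype). Pdpn, a glycoprotein of lymphatic vessels and fibroblasts, was at 3.71 to 5.16 CPM in wildtype, 8.58 to 13 CPM in mdx vehicle and 10.4 to 16.3 CPM in treated libraries (adjusted p = 0.0161 for treated against wildtype). Pdgfra, the receptor that marks fibro-adipogenic progenitors, was at 8.83 to 12.1 CPM in wildtype, 13.2 to 20.6 CPM in mdx vehicle and 19.6 to 27.4 CPM in treated libraries (adjusted p = 0.0310 against wildtype). These genes are on lists of several cell types, and which cells held the transcripts was not tested.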
